A study of Mus musculus with 9 samples.

Results

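The integrated stress response and the unfolded protein response were followed in embryonic mouse lenses through 10 genes: *Eif2ak3*, *Atf6*, *Xbp1*, *Hspa5*, *Atf4*, *Atf5*, *Ddit3*, *Asns*, *Chac1* and *Trib3*. They were taken by gene symbol for their known place in these pathways and not by a measured value, though earlier results of these data were known. A row was found for 9 of the 10 among 15820 entries with a symbol, and *Trib3* was not analysed here. Of the 9, *Atf5* alone passed the test, and its level in lenses that lacked both *Mafg* and *Mafk* was 2.03 times that of control lenses. *Xbp1* lay below the control range in 5 of 6 knockout libraries without passing the adjusted test. For *Atf4*, *Ddit3*, *Asns*, *Hspa5*, *Atf6* and *Eif2ak3*, no difference between genotypes was detected, and *Chac1* was close to its lower limit of measurement.

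RNA was sequenced from lenses of embryonic day E16.5, with 8 lenses pooled in each of 9 libraries. Control lenses were *Mafg*+/-:*Mafk*+/-, compound KO lenses were *Mafg*-/-:*Mafk*+/- and double KO lenses were *Mafg*-/-:*Mafk*-/-, with 3 libraries per genotype. The knockout alleles were germline, on an ICR background, so both genes were also reduced or missing outside the lens, and the controls themselves carried a knockout allele of each gene. No wild-type library was analysed here. Mafg and Mafk are small Maf proteins, which bind DNA as partners of other bZIP factors such as Nrf2 and Bach1, and the study asked which lens RNAs depend on them.

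Both stress pathways adjust protein synthesis and folding to the state of the cell. In the integrated stress response, kinases such as Perk (the product of *Eif2ak3*) phosphorylate the translation factor eIF2, which lowers general translation and favours that of a few mRNAs, among them *Atf4*, *Atf5* and *Ddit3*. In the unfolded protein response, Perk, Ire1 and Atf6 sense unfolded protein in the endoplasmic reticulum (ER), Ire1 splices the *Xbp1* mRNA, and ER chaperones such as Hspa5 (BiP) are induced. Lens fiber cells make very large amounts of crystallin and membrane protein and later degrade their ER. The values described here are RNA levels, so they show neither the translation of *Atf4* and *Atf5* mRNA nor the spliced share of *Xbp1*.

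Values are given as normalized CPM, rounded by the authors to 1 decimal. That they are CPM scaled with a factor for each library is inferred here from their totals, whose geometric mean was 1000010, and is not stated in the sources used here. Differences were tested with limma on log2 of the value plus 1, with 3 libraries in each group. A gene was called where the adjusted p (Benjamini-Hochberg over all genes tested) did not exceed 0.05 and the change reached 1.5-fold. The depth behind the values is unknown, so no counting interval is given. The knockout of *Mafg* was visible in every library: its level was 112.9, 120.7 and 134.5 in the controls, 10.1, 21.0 and 24.1 in compound KO and 24.6, 21.2 and 26.2 in double KO. *Mafk* was at 5.2, 6.3 and 5.6 in the controls, 4.3, 5.3 and 4.8 in compound KO and 0.6, 0.0 and 0.3 in double KO.

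Lens markers were found for 18 of 20 listed genes, and none of them stayed under 1 in all libraries. Their summed level ran from 124817 to 146841 in control, 45902 to 127331 in compound KO and 94069 to 134932 in double KO libraries. The low end of the compound KO range is replicate 1, which stood apart. Its values added up to 728036, the lowest of the 9 totals, and its summed periocular mesenchyme markers (10 of 10 found) were at 2309, against at most 361 elsewhere. In this library the 10 neural retina markers summed to 1138, against at most 299.6 in the others. The main differences of compound KO lenses from control are therefore also given without it. Without it the log2 fold change of *Mafg* in compound KO was −2.39 (adjusted p = 0.0174, limma) in place of −2.75 (adjusted p = 0.188, limma). Since whole lenses were used, fewer cells of a type and less RNA per cell cannot be told apart in any value below.

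**Figure D1:**
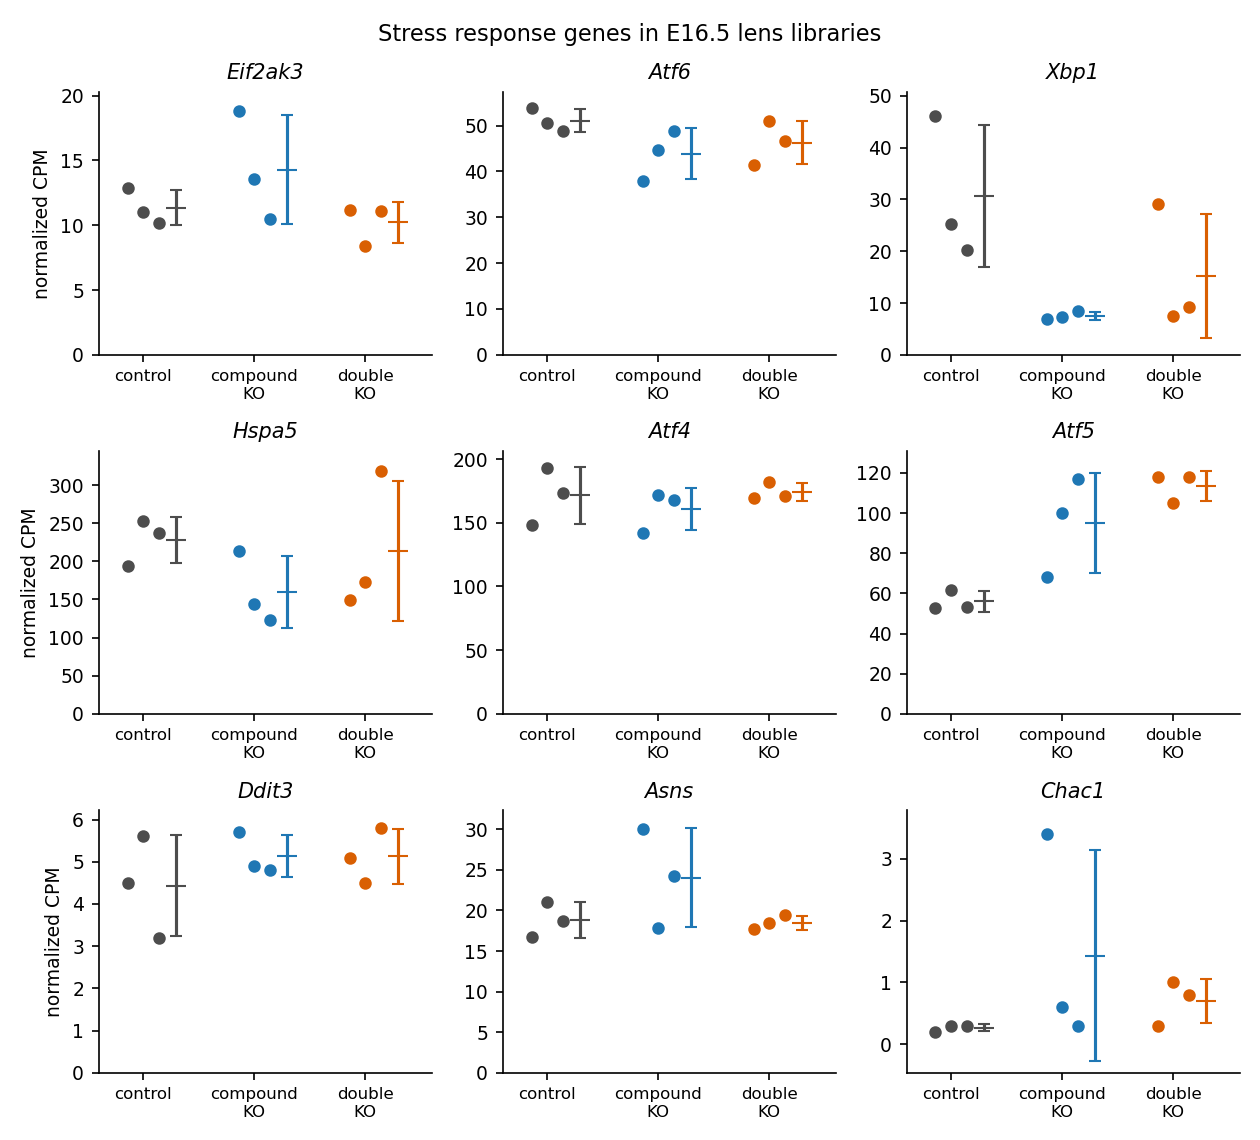
Normalized CPM (y axis, starting at or below 0) of the 9 measured stress response genes in each of 9 E16.5 lens libraries, by genotype on the x axis. Points are libraries in the order of their replicate numbers, and the bar beside them is the mean ± SD of 3. The *Atf5* points of all 6 knockout libraries lie above the 3 control points, and the *Xbp1* points of 5 of 6 lie below them.

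*Eif2ak3* (chromosome 6, 70821461 to 70882235, plus strand, GRCm39) encodes Perk, the ER membrane kinase that links unfolded protein to eIF2. Its level was 12.9, 11.0 and 10.2 in control, 18.8, 13.6 and 10.5 in compound KO and 11.2, 8.4 and 11.1 in double KO libraries. The 3 ranges overlapped, and the highest value was in compound KO replicate 1. The log2 fold change was −0.14 in double KO (95% interval −0.51 to 0.22) and 0.28 in compound KO (−0.28 to 0.84), so a change of 1.5-fold was outside the interval for double KO but not for compound KO. Without replicate 1 the compound KO value was 0.07.

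*Atf6* (chromosome 1, 170532026 to 170696208, minus strand) encodes an ER membrane protein that is cut in the Golgi to release a transcription factor for chaperone genes. It was at 53.8, 50.5 and 48.8 in control, 37.9, 44.7 and 48.9 in compound KO and 41.4, 50.9 and 46.6 in double KO libraries. The lowest value was again that of compound KO replicate 1, and each knockout range reached into the control range. Log2 fold changes were −0.14 (−0.36 to 0.08) in double KO and −0.22 (−0.50 to 0.06) in compound KO, and −0.12 in compound KO without replicate 1.

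*Xbp1* encodes the bZIP factor that is made after Ire1 has spliced its mRNA, and which activates ER chaperone and ER degradation genes. Its level was 46.2, 25.3 and 20.3 in the controls, 6.9, 7.3 and 8.4 in compound KO, and 29.1, 7.5 and 9.2 in double KO. All compound KO libraries were thus below all controls and close to each other. The double KO group was split, with replicate 1 above 2 of the controls and the other libraries at the compound KO level. Means were 30.6 ± 13.7 in control, 7.53 ± 0.777 in compound KO and 15.3 ± 12.0 in double KO (SD, n = 3).

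Between compound KO and control, the log2 fold change of *Xbp1* was −1.81 (SE 0.31, 95% interval −2.57 to −1.05), which is 0.286 of the control level on the scale of value plus 1. Its unadjusted p in limma was 0.00127 and its Benjamini-Hochberg adjusted p 0.367, so it was not called. The difference was about as large without compound KO replicate 1, at −1.75 (adjusted p = 0.264, limma). In double KO the log2 fold change was −1.11 (SE 0.56, −2.51 to 0.28; adjusted p = 0.599, limma), and with each library left out in turn it ran from −1.68 without double KO replicate 1 to −0.77 without double KO replicate 2 (adjusted p between 0.324 and 0.774, limma). The difference between both knockouts had an interval from −0.52 to 1.91, which includes no change and a 2-fold change alike.

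*Hspa5* (chromosome 2, 34661982 to 34668880, plus strand) encodes BiP, the most abundant Hsp70 chaperone of the ER and the usual RNA readout of the unfolded protein response. It was at 194.4, 252.8 and 237.6 in control, 213.3, 143.5 and 122.9 in compound KO and 149.1, 173.0 and 318.2 in double KO libraries. The double KO libraries held both lower and higher values than any control, and 2 of 3 compound KO libraries were below the control range. Its log2 fold change was −0.54 in compound KO (−1.10 to 0.02; adjusted p = 0.481, limma) and −0.17 in double KO (−0.91 to 0.57; adjusted p = 0.905, limma). The interval in double KO thus included neither a 2-fold rise nor a 2-fold fall, and that in compound KO included a 2-fold fall. Without compound KO replicate 1 the compound KO libraries were all below the controls, at −0.77 (adjusted p = 0.240, limma). *Rabepk*, which shares 5980 bases with *Hspa5* on the opposite strand and was looked up afterwards, was at 6.7 to 10.3 in control, 2.9 to 6.8 in compound KO and 3.6 to 5.8 in double KO, with all double KO libraries below the controls.

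Atf6 and Xbp1 are known to act on *Hspa5* through the ER stress element (ERSE), CCAAT and CCACG with 9 bases between them. The promoter windows of RefSeq (250 bases before to 50 after each start, mouse build GRCm38.p6) were searched on both strands, and 9 of the 10 symbols matched a window, the other being *Atf6*. The element is shown because it is the site that ties this readout to its sensors: it occurred in 0.119% of 32851 windows, and among the 10 windows of the 9 matched genes in that of *Hspa5* alone. It spans positions −65 to −47 from the start, and the stretch below is the plus strand of chr2:34772005-34772063, with the element in capitals. The Xbp1 site TGACGTGG, held by 0.676% of windows, was in none of the 10.
Hspa5: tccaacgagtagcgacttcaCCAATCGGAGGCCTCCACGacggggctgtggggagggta

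*Atf4* (chromosome 15, 80139372 to 80141745, plus strand) encodes the main transcription factor of the integrated stress response, and its protein level is set largely by translation. Its RNA level was 148.1, 192.8 and 173.5 in control, 141.7, 172.0 and 168.2 in compound KO and 169.6, 182.1 and 171.1 in double KO libraries. All 3 ranges overlapped, and the double KO libraries lay inside that of the controls. The log2 fold change in double KO was 0.03 (−0.22 to 0.28), and that in compound KO −0.09 (−0.42 to 0.24), and both intervals were narrower than a 1.5-fold change in either direction. Without compound KO replicate 1 the latter was −0.0033.

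*Atf5* encodes a bZIP factor of the same family, translated under the same control and known for its part in the mitochondrial stress response. It was at 52.7, 61.8 and 53.4 in control, 68.1, 100.3 and 117.0 in compound KO and 118.0, 105.1 and 118.1 in double KO libraries. Every knockout library was above every control, and the double KO values lay close together while the compound KO values spread from near the controls up to the double KO level. Means were 56.0 ± 5.06 in control, 95.1 ± 24.9 in compound KO and 113.7 ± 7.48 in double KO (SD, n = 3), that is 1.70 and 2.03 times the control mean.

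*Atf5* rose by 1.01 on the log2 scale (SE 0.09, 95% interval 0.80 to 1.22) in double KO, with an unadjusted p in limma of 3.21e-05 and an adjusted p of 0.0174. In compound KO lenses the log2 fold change was 0.72 (SE 0.21, 0.20 to 1.24), and its unadjusted p of 0.0149 in limma became 0.481 after adjustment. The lowest knockout value was that of compound KO replicate 1, the library that stood apart, and without it the log2 fold change was 0.94 (adjusted p = 0.125, limma). Double KO and compound KO differed by 0.29 (−0.22 to 0.80; adjusted p = 0.665, limma), so a further increase with the loss of *Mafk* was not detectable here. The call in double KO was lost when control replicate 1, control replicate 3, double KO replicate 1 or double KO replicate 3 was left out, with adjusted p between 0.0626 and 0.0937 (limma) and log2 fold changes between 0.97 and 0.98.

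The sums of some marker lists also differed between knockout and control libraries. Those of lens epithelium, periocular mesenchyme, retinal pigment epithelium and endothelium markers overlapped between control and each knockout. Compound KO replicate 1 alone was far higher in pigment epithelium markers (7 of 9 found), at 749.3 against at most 59.4 elsewhere. Its endothelium markers (7 of 7 found) summed to 135.1, against at most 67.6 elsewhere. The summed level of 12 skeletal muscle markers (12 of 12 found) was 4 to 7 in control, 25.3 to 454.2 in compound KO and 34 to 113.1 in double KO libraries. Erythroid markers (8 of 10 found) summed to 1171 to 1640 in control, 1426 to 2839 in compound KO and 2340 to 3879 in double KO. Lens fiber cell markers (9 of 10 found) were below the controls in all 6 knockout libraries, with sums of 16738 to 19729 in control, 5621 to 14611 in compound KO and 13601 to 15838 in double KO. In compound KO libraries alone, the sums of macrophage markers (6 of 8 found; 15.4 to 24.2 against 8.3 to 10.4), neural retina markers (128.2 to 1138 against 38.7 to 113.5) and surface epithelium markers (5 of 7 found; 6.8 to 303.4 against 2.2 to 4.9) were all above the controls. No marker of these lists stayed under 1 in all libraries. Compound KO replicate 1, the library that stood apart in its total as well, had the highest muscle sum and the lowest *Atf5* value of the 6 knockout libraries. The part of these marker differences in the differences of *Atf5* and *Xbp1* was not tested.

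*Atf5* lies on the minus strand of chromosome 7 (44461680 to 44466082, GRCm39), and its 5′ end shares 729 bases (44465354 to 44466082) with *Nup62*, a nuclear pore gene on the opposite strand. The libraries were strand-specific, but whether strand was used in counting is not given in the sources used here, so reads of this stretch may have been credited to either gene. *Nup62*, looked up after the values of *Atf5* were seen, was at 54.7, 56.3 and 42.8 in control, 69.6, 75.3 and 75.1 in compound KO and 70.9, 58.5 and 72.4 in double KO libraries. It too was above the controls in all 6 knockout libraries, by a smaller step, with a log2 fold change of 0.39 in double KO (SE 0.14; adjusted p = 0.436, limma) and 0.52 in compound KO (SE 0.12; adjusted p = 0.481, limma), which was 0.55 without compound KO replicate 1. *Il4i1*, which is annotated over the same bases, was not analysed here.

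*Xbp1* (chromosome 11, 5470606 to 5483027, plus strand) lies wholly within the span of *Ccdc117*, again on the opposite strand and also looked up after the values were seen. *Ccdc117* was at 36.7, 19.0 and 34.1 in control, 29.6, 29.0 and 30.1 in compound KO and 28.3, 31.7 and 34.9 in double KO libraries. Its groups overlapped, with log2 fold changes of 0.04 in compound KO and 0.13 in double KO, so it did not share the low values of *Xbp1*. *Asns* and *Atf6* also overlap antisense genes in the annotation, which were not analysed here.

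**Figure D2:**
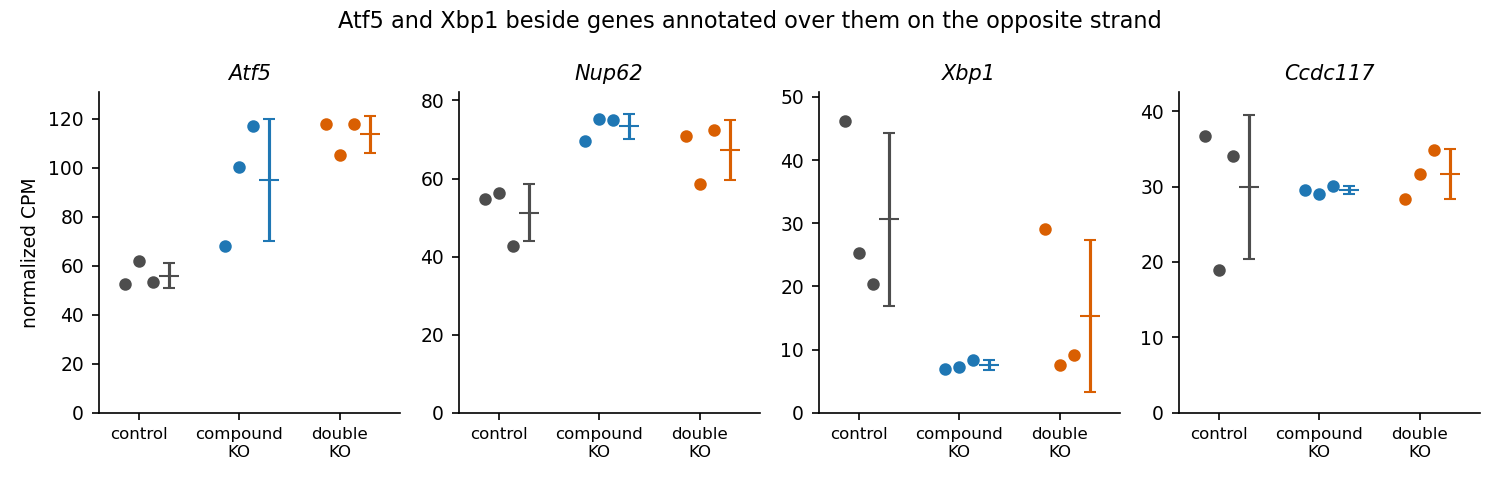
Normalized CPM (y axis, from 0) of *Atf5* and *Xbp1* beside *Nup62* and *Ccdc117*, the genes annotated over them on the opposite strand, in 9 lens libraries by genotype (x axis), with mean ± SD of 3 beside the points. *Nup62* is above the controls in all 6 knockout libraries, as *Atf5* is, and *Ccdc117* overlaps between the groups.

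The bases before the starts of *Atf5* are shown because it is the gene that passed the test, and small Maf proteins bind variants of the antioxidant response element (ARE), here TGACNNNGC. RefSeq holds 2 promoter windows for it, and the 100 bases before each start are given in the direction of transcription. The first is the minus strand of chr7:44816659-44816758 with 79% G and C, and the other that of chr7:44815659-44815758 with 59%, where the median of all windows was 55% (GRCm38.p6). None of the 4 motifs searched, ARE included, was in either 300-base window, while 12.4% of all windows held an ARE. No capitals are used, since no motif was found.
Atf5, first start: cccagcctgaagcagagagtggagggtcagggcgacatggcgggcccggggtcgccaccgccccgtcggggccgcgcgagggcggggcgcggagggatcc
Atf5, other start: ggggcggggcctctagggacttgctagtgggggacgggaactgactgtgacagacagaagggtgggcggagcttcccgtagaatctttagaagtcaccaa

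*Ddit3* (chromosome 10, 127124268 to 127132163, plus strand) encodes Chop, a factor induced by Atf4 that promotes cell death in prolonged ER stress. It was low in all libraries, at 4.5, 5.6 and 3.2 in control, 5.7, 4.9 and 4.8 in compound KO and 5.1, 4.5 and 5.8 in double KO. No group stood apart, and the controls held the lowest value. The log2 fold change was 0.19 in double KO (−0.29 to 0.68) and 0.20 in compound KO (−0.31 to 0.71), so that both intervals include a 1.5-fold rise, and 0.13 in compound KO without replicate 1. Its ends overlap *Mars* and *Mbd6* on the opposite strand, which differed by −0.09 and −0.09 (log2) in double KO.

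*Asns* (chromosome 6, 7671667 to 7728461, minus strand) encodes asparagine synthetase, which Atf4 induces when amino acids are short. Its level was 16.7, 21.1 and 18.7 in control, 30.1, 17.9 and 24.2 in compound KO and 17.7, 18.4 and 19.4 in double KO. Double KO libraries lay inside the control range, and 2 of 3 compound KO libraries lay above it, the highest being replicate 1. Log2 fold changes of *Asns* were −0.02 in double KO (−0.27 to 0.23) and 0.31 in compound KO (−0.20 to 0.83; adjusted p = 0.503, limma), the latter 0.14 without replicate 1.

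*Chac1* (chromosome 2, 119180757 to 119184866, plus strand) encodes an enzyme that degrades glutathione and is among the genes most responsive to Atf4. It was at 0.2, 0.3 and 0.3 in control, 3.4, 0.6 and 0.3 in compound KO and 0.3, 1.0 and 0.8 in double KO libraries. Only 2 of 9 libraries reached 1, so *Chac1* entered the test between both knockouts alone, where the log2 fold change was −0.32 (−1.54 to 0.90). The single high value was again in compound KO replicate 1. At this level a value of 0.3 is 3 rounding steps, and no order of the groups is read from it.

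Atf4 acts on its targets through the C/EBP-ATF response element (CARE), here TGATGNAA. It is shown for *Chac1* and *Asns* because Atf4 is known to act on both genes through it. A CARE was in 3.97% of 32851 windows and in those of *Chac1*, *Asns* and *Trib3*, the last one after the start. In *Chac1* the match spans −193 to −186 on the opposite strand (chr2:119351029-119351076, plus strand shown), and in *Asns* −23 to −16 on the gene's own strand (chr6:7693210-7693252, minus strand shown). The window of *Asns* also holds an ARE, from −172 to −164 on the opposite strand (chr6:7693353-7693401, minus strand shown), the only one among the same 10 windows. Capitals mark the matches, in the build GRCm38.p6.
Chac1 CARE: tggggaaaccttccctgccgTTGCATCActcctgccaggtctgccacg
Asns CARE: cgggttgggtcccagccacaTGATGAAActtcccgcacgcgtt
Asns ARE: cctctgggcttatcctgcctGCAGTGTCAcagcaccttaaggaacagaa

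Counted together, 1 of 8 tested genes was called between double KO and control, where 0.361% of 14122 genes were called. The unadjusted p with the same fold threshold also took *Atf5* alone, beside 2.83% of all genes, and *Atf5* was the 1 of 8 whose groups did not overlap, beside 15.8% of all genes. Between compound KO and control, 0 of 8 were called with limma, beside 0% of 14348 genes. Here 2 of 8 passed the unadjusted p (5.34% of all genes) and 2 of 8 did not overlap (23.9% of all genes), *Atf5* above and *Xbp1* below the controls in both counts. Without compound KO replicate 1 both counts were 3 of 8, with *Hspa5* also below the controls. Of the 14042 genes tested in that setting, 517 passed the unadjusted p with the fold threshold and 31.6% did not overlap. Double KO and compound KO differed in 0 of 9 genes with limma, also at the unadjusted p and by overlap, beside 0.0139%, 3.06% and 15.6% of 14402 genes. All 6 knockout libraries lay on the same side of the 3 controls for 1 of 9 genes, *Atf5*, and for 6.95% of 14578 genes. Both knockouts were set against the same control libraries, so their differences from control are not independent.

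**Figure D3:**
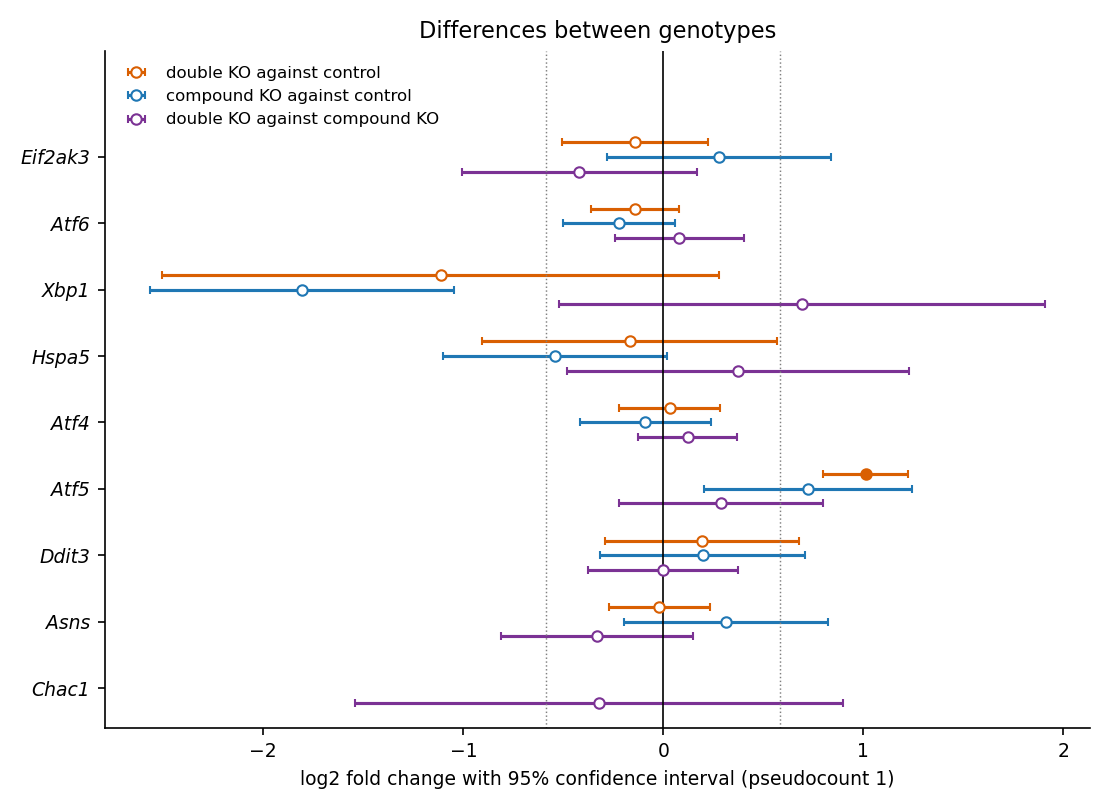
Log2 fold changes (x axis, log2 of the value plus 1) with 95% intervals for the 9 measured genes (y axis) in the 3 comparisons between genotypes, from limma. A filled point passed the test, which is *Atf5* in double KO against control alone, and the dotted lines mark a 1.5-fold change.

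The 9 genes did not vary as 1 group over the libraries. Over their 36 pairs, Pearson's r of log2 values across 9 libraries ran from −0.76 to 0.71 with a median of 0.01, and 18 pairs were positive. The highest r was that of *Asns* with *Chac1*, which is close to its lower limit, and both had their highest value in compound KO replicate 1. The libraries share genotype groups, and compound KO replicate 1 weighs on each pair. The genes whose log2 values ran closest to the mean standardized level of the members were *Kif1c* (r = 0.91), *Hltf* (0.89), *Phkb* (0.89), *Zfp558* (0.89) and *Gigyf1* (0.88), over 9 libraries. They were picked as the highest among 14578 genes, so a high r is to be expected of some genes and no link is read from it. The mean also includes *Chac1*, and *Zfp558* itself only ran from 0.2 to 1.9.

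Around these genes, 119 others of the same pathways were listed in 8 groups, of which 114 had a row. Between double KO and control, 0 of 110 tested genes were called with limma, and 2 passed the unadjusted p with a 1.5-fold change, both higher. The groups did not overlap for 23 of 110 (20.9%, beside 15.8% of all genes), 12 higher and 11 lower, and the change was under 1.5-fold in 106 of 110. Their median log2 fold change was −0.03, beside 0.01 over all genes. Between compound KO and control, 0 of 110 were called with limma, and 1 passed the unadjusted p upwards and 2 downwards. The groups did not overlap for 32 (29.1%, beside 23.9% of all genes). Of these, 4 were higher (3.64%, beside 12.2% of all genes) and 28 lower (25.5%, beside 11.7%). The median was −0.09 beside 0.02. Without compound KO replicate 1, 0 of 110 listed genes were called with limma beside 0.0926% of all genes, and 39 (35.5%, beside 31.6% of all genes) did not overlap. Then 8 were higher (7.27%, beside 16.1% of all genes) and 31 lower (28.2%, beside 15.5%), and the median was −0.03. All 6 knockout libraries lay on the same side of the controls for 9 of 110 listed genes (8.18%, beside 6.95% of all genes). *Derl1* and *Gadd45a* were higher, and *Slc7a5*, *Hspa9*, *Tnfrsf10b* and, chosen here only by this count, *Eif2s1*, *Sec61a1*, *Serp1* and *Ube2j1* were lower, the last 4 with log2 fold changes between −0.09 and −0.06 in double KO.

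Among 16 genes of the eIF2 kinases, eIF2, eIF2B and the eIF2 phosphatase, the median log2 fold change in double KO was −0.03. *Impact*, an inhibitor of the kinase Gcn2, was at 5.8, 7.9 and 8.7 in control, 8.0, 8.2 and 11.0 in compound KO and 15.5, 11.6 and 9.1 in double KO libraries. All double KO values were above the controls, one of them only by 0.4, and the log2 fold change was 0.61 (SE 0.23; adjusted p = 0.463, limma). *Eif2b3*, a subunit of the exchange factor eIF2B, and *Ppp1ca*, a catalytic subunit of the phosphatase, followed with 0.22 and −0.14.

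The other transcription factors and regulators of the integrated stress response (9 of 11 tested) had a median of 0.04 in double KO. *Ddit4*, an inhibitor of mTORC1 that Atf4 induces, was at 26.9, 28.0 and 31.2 in control, 37.4, 27.3 and 28.3 in compound KO and 37.9, 41.7 and 49.3 in double KO libraries. The double KO values were all above the controls and above the compound KO values, while compound KO reached past the controls in replicate 1 alone. Its log2 fold change in double KO was 0.56 (SE 0.11; unadjusted p = 0.00316, adjusted p = 0.215, limma). *Gadd45a*, a growth arrest gene, was at 9.3 to 10.8 in control and at 11.1 to 18.8 over the 6 knockout libraries, with 0.42 in double KO. *Nupr1* ranged from 28.0 to 165.7 with overlapping groups, with −0.75.

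Amino acid transport and synthesis genes induced through Atf4 (18 of 21 tested) had a median of −0.04 in double KO and 0.04 in compound KO (0.05 without replicate 1). *Slc7a5*, the light chain of the LAT1 transporter for large neutral amino acids, was at 890.6, 932.3 and 966.0 in control, 359.7, 681.0 and 752.0 in compound KO and 713.7, 697.5 and 757.0 in double KO libraries. All 6 knockout libraries were below the controls. The log2 fold change of −0.36 in double KO (SE 0.05; adjusted p = 0.104, limma) was the nearest to a call in all 8 groups, but smaller than 1.5-fold. In compound KO it was −0.71, and −0.38 without replicate 1.

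*Slc7a11*, the cystine transporter that both Atf4 and Nrf2 are known to induce, was at 35.6, 34.2 and 33.8 in control, 31.4, 46.1 and 46.7 in compound KO and 42.0, 46.5 and 40.0 in double KO libraries. It was above the controls in 5 of 6 knockout libraries, the exception being compound KO replicate 1, with a log2 fold change of 0.30 in double KO (SE 0.07; adjusted p = 0.268, limma). *Slc1a4*, a neutral amino acid transporter, was at 85.3 to 96.3 in control and 76.6 to 78.1 in double KO, with −0.23 (SE 0.06; adjusted p = 0.275, limma). *Phgdh*, the entry enzyme of serine synthesis, named here because it passed the unadjusted p in compound KO, was at 139.3 to 163.6 in control and 73 to 123.8 in compound KO, with −0.60 (adjusted p = 0.481, limma), or −0.39 without replicate 1.

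The ER stress sensors and their processing enzymes other than the members (9 of 10 tested) had a median of 0.01 in double KO. *Atf6b*, the close relative of *Atf6*, was at 25.0, 24.9 and 27.8 in control, 59.4, 27.8 and 52.2 in compound KO and 30.6, 48.8 and 38.1 in double KO libraries. Its double KO values were all above the controls, and 1 compound KO value equalled the highest control. Log2 fold changes were 0.75 in compound KO (SE 0.29; adjusted p = 0.481, limma), 0.54 there without replicate 1, and 0.56 in double KO (SE 0.17; adjusted p = 0.379, limma). *Mbtps1*, the protease that cuts Atf6, and *Creb3l2* differed by 0.11 and −0.11 in double KO.

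ER chaperones and folding enzymes (23 of 23 tested) had a median of −0.01 in double KO and −0.15 in compound KO (−0.11 without replicate 1). Of the 23, 9 were below the controls in all compound KO libraries and 0 above, beside 11.7% and 12.2% of all genes. Without replicate 1 these counts were 11 and 0, beside 15.5% and 16.1% of all genes. Other groups showed this too. With all libraries, 4 of 9 mitochondrial chaperones and proteases, 6 of 19 ER-associated degradation genes and 4 of 16 eIF2 genes were below, with 0, 1 and 0 above. Among the amino acid genes 4 of 18 were below and 1 above, among the other factors 0 of 9 and 2, among the sensors 0 of 9 and 0, and among the cell death genes 1 of 7 and 0. *Calr*, a calcium-binding lectin chaperone, was at 371.9, 356.8 and 327.0 in control, 290.5, 199.4 and 234.6 in compound KO and 109.2, 358.7 and 149.0 in double KO libraries. Like *Hspa5*, it was spread widely among the double KO libraries, though with its high value in another library, and its log2 fold change there was −0.96 (SE 0.43; adjusted p = 0.555, limma). It was −0.60 without double KO replicate 1 and −1.45 without double KO replicate 2 (adjusted p = 0.747 and 0.0751, limma). *Ero1l*, the oxidase that serves disulfide formation, was at 39.8 to 43.5 in control, 30.4 to 38.7 in compound KO and 45.6 to 55.7 in double KO, so that its 3 groups were apart in opposite directions, with −0.24 (−0.13 without compound KO replicate 1) and 0.27 from control. Between both knockouts the log2 difference of *Ero1l* was 0.51 (SE 0.13; adjusted p = 0.665, limma). *Fkbp2*, an ER prolyl isomerase, differed by 0.35 in double KO.

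In the group of ER-associated degradation and ER membrane genes (19 of 20 tested) the median was 0.04 in double KO. *Sec63*, a partner of the Sec61 channel that brings Hspa5 to entering proteins, was at 15.4, 29.8 and 26.8 in control, 29.1, 47.3 and 27.0 in compound KO and 51.7, 47.0 and 45.0 in double KO libraries. Each double KO library was above each control, with a log2 fold change of 1.02 (SE 0.25; adjusted p = 0.273, limma), as large as that of *Atf5* but with a wider spread among the controls. *Derl1*, a membrane protein of ER-associated degradation, differed by 0.11. The mitochondrial chaperones and proteases, a pathway in which Atf5 is known to act, had a median of −0.10 in double KO over 9 of 9 tested genes, from −0.41 for *Htra2* to 0.03. In compound KO the median was −0.22, and −0.12 without replicate 1. There 4 of the 9 were below all controls and 0 above in both settings, where 11.7% and 15.5% of all genes were below. Their *Hspa9* was at 261 to 268 in control, 128 to 225.1 in compound KO and 229.3 to 252.1 in double KO, below the controls in all 6 knockout libraries, with −0.12 in double KO, and *Hspe1* differed by −0.12.

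Cell death genes downstream of Ddit3 (7 of 9 tested) had a median of −0.09 in double KO. *Tnfrsf10b*, the death receptor known as a Chop target, was at 14.4, 12.1 and 10.9 in control, 5.5, 8.6 and 9.3 in compound KO and 7.2, 8.8 and 9.5 in double KO libraries. It was below the controls in all 6 knockout libraries, with log2 fold changes of −0.63 in compound KO (adjusted p = 0.481, limma), −0.43 there without replicate 1, and −0.50 in double KO (adjusted p = 0.351, limma). *Bak1* and *Bcl2* differed by 0.13 and −0.09 in double KO.

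**Figure D4:**
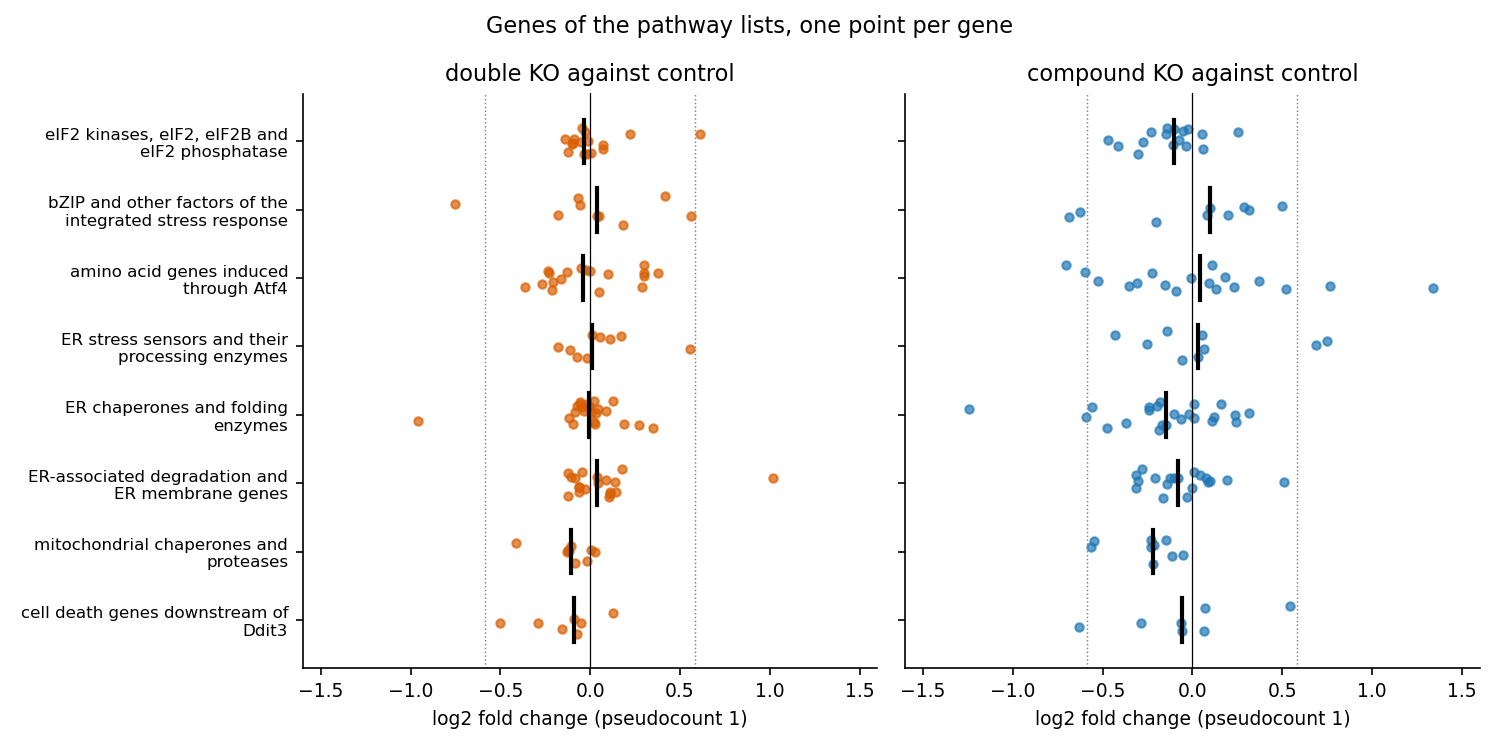
Log2 fold changes (x axis) of the listed pathway genes in 8 groups (y axis), in double KO (left) and compound KO (right) against control, with 1 point per gene, a black bar at each group's median and dotted lines at a 1.5-fold change. In double KO, 106 of 110 points lie within the dotted lines, and no point on either side passed the adjusted test.

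The *Atf5* difference kept its size under other settings, while its call did not always hold. Under 13 other settings its log2 fold change in double KO ran from 0.97 to 1.08, and the adjusted p from 0.00732 to 0.212 (limma), past the threshold in 7 of them. The other filters, the fit of all 9 libraries and the replicate block leave the fold change at 1.01 by construction, so they do not test its size. In the fit of all 9 libraries together, which shares the wider spread of compound KO, the adjusted p was 0.188. *Xbp1* in compound KO ran from −2.05 to −1.48 over its 13 settings, with adjusted p from 0.264 to 0.712 (limma).

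**Figure D5:**
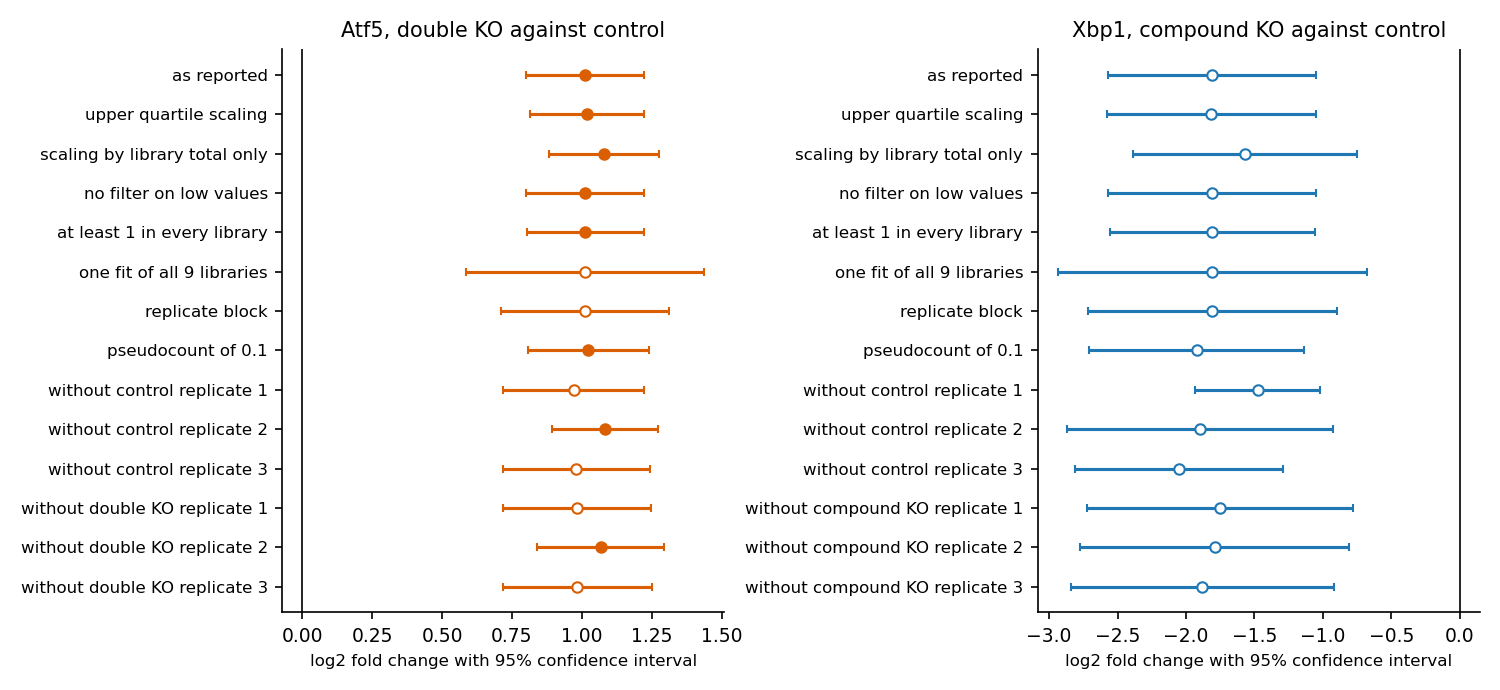
Log2 fold change (x axis) with 95% interval of *Atf5* in double KO and *Xbp1* in compound KO, both against control, as reported and under 13 other settings (y axis). Filled points passed the test, which *Atf5* did as reported and in 7 of 13 settings and *Xbp1* in none, and no interval includes 0.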

How the data were processed

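RNA of 9 lens libraries at E16.5 was compared, grouped by the genotypes in the labels. Reads of stranded libraries had been placed on mm39 with HISAT2 by the authors and counted per transcript with StringTie, and entries of low CPM were dropped in edgeR. The deposited values are a normalized signal, which their totals show to be no plain CPM, of 22013 entries, of which 6193 carry no symbol and were not tested. Depth is unknown, so precision is described by the spread between libraries alone.

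Values plus 1 were taken to log2 and tested with limma 3.58.1 (intensity trend, two-sided) in R 4.3.3, one pair of genotypes at a time, where 2 or more of the 6 libraries reached a value of 1. Adjustment was by Benjamini-Hochberg over all entries tested. On simulated data with 14122 genes for double KO against control, 62 of 104 genes changed by 1 log2 unit and 76 of 96 changed by 2 were called, with 7 false calls. The simulated noise was normal and independent between genes, so these rates need not hold for the real libraries. Summaries and figures used Python 3.11.15, numpy 2.4.6, pandas 2.3.3 and matplotlib 3.10.9. Positions come from GENCODE on GRCm39, and promoter sequences from RefSeq on GRCm38.p6.

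The genes and lists were chosen with earlier results of these data known. Named genes were the 10 members, in each list the genes called in any comparison and the 3 of smallest p between double KO and control, the 5 genes most like the members, *Mafg* and *Mafk*. Others are marked where they appear. One gene that this rule names is not reported here. Alternatives were other scalings, filters and a pseudocount of 0.1, no fold threshold, one fit of all libraries, the replicate block and leaving out each library. Counts of genes without overlap and list medians without compound KO replicate 1 were added after seeing the data. Whether libraries of a group came from separate litters is not given in the sources used here, so p-values measure the spread between these libraries.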

Additional observations from a re-analysis of the deposited data

How the results depend on the processing

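Of 159 counts recomputed under the alternatives, 135 stayed within 1.5 times the reported count and 24 did not. Of 787 recomputed log2 fold changes, 757 kept direction and call, 12 lost the call, 2 gained it and 16 changed sign. Most of these were of genes not called as reported, which had no call to lose. The lost calls were all in double KO against control, those of *Atf5* in 6 of 13 settings and of *Mafk* in 6 of 12. *Mafg* kept its call there in all 13. The number of called members between double KO and control, 1 as reported, was 0 in the fit of all 9 libraries and ran from 0 to 1 with each library left out. At the unadjusted p it ran from 1 to 2 there, from 1 to 3 between compound KO and control, and from 0 to 1 between both knockouts. Listed pathway genes at the unadjusted p between double KO and control, 2 as reported, were 4 with scaling by library total only and 1 to 5 with a library left out. Between compound KO and control, where 3 were reported, they were 5 with that scaling and 0 to 5 with a library left out, and between both knockouts 0 to 4. No listed gene was called in limma under any setting that was run.

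Scaling by library total only moved the median of all genes to 0.07 in double KO and 0.24 in compound KO against control, and to −0.17 between both knockouts. Under it *Asns* in double KO turned to 0.047, *Atf6*, *Atf4* and *Mafk* in compound KO to 0.031, 0.17 and 0.0080, and *Atf6* and *Atf4* between both knockouts to −0.10 and −0.065. Relative to the shifted median, the 3 compound KO values are still below. Upper quartile scaling turned *Ddit3* between both knockouts to 0.0082. With each library left out, log2 fold changes in double KO ran from −0.50 to 0.049 for *Hspa5*, −0.070 to 0.12 for *Atf4*, −0.099 to 0.062 for *Asns* and −0.19 to 0.032 for *Creb3l2*, and between both knockouts from −0.019 to 0.16 for *Atf6* and −0.080 to 0.074 for *Ddit3*. Over all genes, 51 were called between double KO and control as reported, 21 in the fit of all 9 libraries and 22 to 47 with a library left out.

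Deviations of same-numbered libraries correlated by −0.11 to 0.22 over 9 pairs, over 0.1 in 2. Differently numbered libraries were not correlated for comparison, so these values cannot tell whether the replicate numbers pair the samples. With the replicate number as a block, 10 genes were called between double KO and control, 0 of them members (*Atf5* adjusted p = 0.212, limma), 2 members and 1 listed gene passed the unadjusted p, and *Xbp1* had an unadjusted p of 0.00924 in limma.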
